A study of Mus musculus with 12 samples.

Results

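Tubulin genes encode the alpha and beta chains of the dimer from which microtubules are built. The 10 genes described here are 5 of the beta family (Tubb2a, Tubb2b, Tubb4b, Tubb5 and Tubb6) and 5 of the alpha family (Tuba1a, Tuba1b, Tuba1c, Tuba4a and Tuba8). They were taken by symbol from the 15140 genes of the count table, and 9 of them were among the 15000 genes tested. Tuba8 had too few reads for the filter on low counts. The set was selected on the KO and WT counts themselves, since it was put together around Tubb2a with results of this comparison known. The KO and WT values of these genes are therefore a description and support nothing further.

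The RNA came from livers of male mice that started a high-fat diet (60 kcal% fat) at 7 to 8 weeks of age and stayed on it for 3 months. The group labelled Phb1 KO (6 libraries, Phb1adipo-/-) carried a deletion of prohibitin 1, a mitochondrial scaffold protein, in adipocytes, and the group labelled Phb1 WT (6 libraries) was wild type. Both groups received the diet, and no group on another diet was analysed here. The line that drives the deletion, and whether every library had a mouse of its own, were not stated in the labels, and a p-value here speaks of the spread among 12 libraries. The study asked how loss of the protein in fat cells bears on the fatty liver of this diet.

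Total counts were 34121087 to 37973022 per KO library and 30348123 to 40828767 per WT library. The share of mitochondrial counts was 5.39 to 6.41% in KO and 5.10 to 5.59% in WT. Because the deletion was made in adipocytes, the liver level of Phb (88.6 to 100 CPM in KO and 80.0 to 91.2 CPM in WT; CPM, counts per 1000000 after TMM scaling of library sizes) does not check the genotype labels. The summed CPM of 8 hepatocyte markers was 65511 to 89970 in KO and 61165 to 92218 in WT in the tissue labelled liver. The summed CPM of 9 macrophage markers was 160 to 311 in KO and 283 to 439 in WT, and 3 of the 9 fell, beside 1.49% of all genes. The summed CPM of 4 T and NK cell markers was 0.501 to 1.42 CPM in KO and 1.82 to 3.28 CPM in WT, and 1 of the 3 tested fell. Of 9 neuron and Schwann cell markers, 2 had values, which summed to 9.36 to 18.3 CPM in KO and 15.0 to 24.2 CPM in WT. Of 6 adipocyte markers, 2 had values, Cidec and Cfd, which summed to 4.07 to 104 CPM in KO and 7.64 to 42.3 CPM in WT. Adipoq, Plin1, Lep and Retn were not among the genes of the count table. The sum thus rests on 2 genes and cannot by itself show adipocyte content. The part of these cell types in the tubulin values was not tested. In bulk tissue, fewer cells of a type and less RNA per cell cannot be told apart.

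Alpha and beta chains fold with the help of the chaperonin CCT, prefoldin and the tubulin cofactors, and pair into dimers that add to and leave microtubule ends. Hepatocytes use microtubules to move secretory vesicles, lipid-carrying particles and organelles between the sinusoidal and the canalicular side. Tubulin messages are also under a feedback known as autoregulation, in which excess free dimer leads the factor TTC5 to nascent tubulin chains and the message is degraded during translation. The beta genes differ most in the acidic tail at the end of the protein, which faces outward from the microtubule and carries polyglutamylation.

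How far the genes can be told apart by short reads bears on every value below. Tubb2a (ENSMUSG00000058672, chromosome 13, 34074274 to 34078007, minus strand, GRCm38 as all positions here) and Tubb2b (chromosome 13, 34126748 to 34130466, minus strand) are neighbours. Their coding sequences were 96.5% identical, with 47 mismatches in 1335 bases, while Tubb2a was 83.4 to 84.6% identical to Tubb4b, Tubb5 and Tubb6. The last 60 coding bases before the stop codon encode the acidic tail and are shown to make this difference visible, with capitals where a base differs from Tubb2a in the alignment.
Tubb2a, chr13:34074471-34074530, minus strand: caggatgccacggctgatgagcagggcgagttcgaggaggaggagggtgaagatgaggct
Tubb2b, chr13:34127474-34127533, minus strand: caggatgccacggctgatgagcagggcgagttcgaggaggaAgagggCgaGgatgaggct
Tubb4b, chr2:25222311-25222370, minus strand: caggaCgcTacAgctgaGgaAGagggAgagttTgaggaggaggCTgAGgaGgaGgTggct
Tubb5, chr17:35834985-35835044, minus strand: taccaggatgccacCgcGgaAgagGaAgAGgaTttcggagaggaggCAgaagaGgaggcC
Over these 60 bases Tubb2b differed from Tubb2a at 3 positions and Tubb4b at 15. The 3 differences of Tubb2b leave the encoded residues unchanged, so both genes encode the same tail here. In Tubb5, 15 differences were counted, gaps included.

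Of all 100-base windows in the annotated transcripts of Tubb2a, 36.9% occurred unchanged in another gene, and 35.9% occurred in Tubb2b. With windows of 50 bases these shares were 49.6% and 45.6%. For Tubb4b (chromosome 2, 25222160 to 25224702), 30.6% of 100-base windows were shared, and 27.4% of all its windows occurred in the pseudogene Tubb4b-ps1. Tubb5 (chromosome 17, 35833921 to 35838306) and Tubb6 (chromosome 18, 67390717 to 67402749) shared none at 100 bases. Tuba1a, Tuba1b and Tuba1c, which lie together on chromosome 15 between 98931425 and 99038110, were 97.1 to 98.3% identical in coding sequence and shared 65.8%, 73.0% and 53.4% of 100-base windows. Tuba4a (chromosome 1, 75214228 to 75219865) shared 35.3%, all of it with Stk16, a kinase gene on the opposite strand. The exons of Stk16 lay over 37.3% of Tuba4a exon bases, so this share is an overlap and not likeness to another tubulin gene. On the same strand, the annotated gene Gm49450 lay over 26.2% of Tuba1a and 22.7% of Tuba1b exon bases, which strand-specific counting would not separate. Stk16 itself averaged 71.9 ± 6.74 CPM in KO and 74.1 ± 2.73 CPM in WT (SD, n = 6 each). The labels do not state read length, strand setting or how reads that match several genes were counted, so values of the paralogs with high sharing are uncertain.

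**Figure D1:**
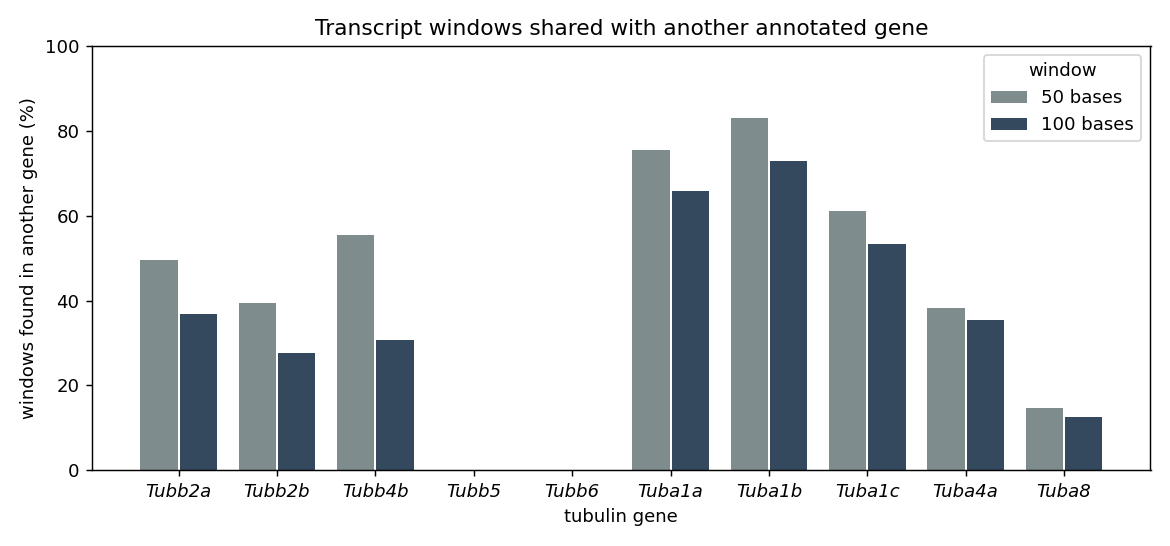
Percentage of 50-base and 100-base windows of each gene's annotated transcripts that occur unchanged in a transcript of another gene. At 100 bases the bars run from 0 for Tubb5 and Tubb6 to 73.0% for Tuba1b, and Tubb2a stands at 36.9%. All shared 100-base windows of Tuba4a occur in Stk16, which overlaps it on the opposite strand.

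Tubb2a had 64.2, 243, 37.1, 77.8, 66.7 and 125 CPM in KO libraries 1 to 6. It had 29.0, 19.7, 21.7, 14.5, 13.2 and 46.3 CPM in WT libraries 1 to 6. KO library 2 was the highest and WT library 6 the highest of its group; 5 of 6 KO libraries stood above every WT library, and KO library 3 lay below WT library 6. The means were 102 ± 74.8 CPM in KO and 24.1 ± 12.3 CPM in WT (SD, n = 6 each), a log2 fold change of 2.09 ± 0.47 (SE), or 4.26-fold. By log2 fold change this placed it 18th of all genes tested.

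Tubb2b, the closest paralog and best known as a neuronal beta-tubulin, had 0.474, 4.33, 0.646, 0.813, 0.890 and 0.974 CPM in KO libraries 1 to 6. It had 0.212, 0.281, 0.150, 0.107, 0.135 and 0.372 CPM in WT libraries 1 to 6. The groups did not overlap, and KO library 2 was again far above the other libraries. These levels rest on 314 reads in all KO libraries together and 44 in all WT libraries, with a log2 fold change of 2.70 ± 0.58 (SE, n = 6 per group), or 1.86 without KO library 2.

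Because the 2 genes share so many windows, the Tubb2b count was also set against the Tubb2a count of the same library. It was 0.737, 1.78, 1.74, 1.04, 1.33 and 0.776% of the Tubb2a count in KO libraries 1 to 6. It was 0.731, 1.43, 0.694, 0.735, 1.03 and 0.802% in WT libraries 1 to 6. The ranges overlapped, with means of 1.24 ± 0.460% in KO and 0.903 ± 0.283% in WT (SD over 6 libraries). How many of the Tubb2b reads came from Tubb2a messages was not tested.

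Tubb4b, a beta-tubulin used in most tissues, had 92.4, 142, 99.0, 98.8, 114 and 131 CPM in KO libraries 1 to 6. It had 90.3, 55.1, 69.2, 51.4, 44.3 and 86.5 CPM in WT libraries 1 to 6. Every KO library stood above every WT library, although KO library 1 and WT library 1 were close. The means were 113 ± 19.9 CPM in KO and 66.1 ± 19.1 CPM in WT (SD, n = 6 each), a log2 fold change of 0.77 ± 0.18 (SE). Its pseudogene Tubb4b-ps1 averaged 1.07 CPM in KO and 0.710 CPM in WT.

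The other beta genes had smaller differences. Tubb5, the widely used beta-tubulin of dividing and resting cells, had 61.1, 71.9, 47.0, 56.6, 78.3 and 76.4 CPM in KO libraries 1 to 6, and 54.5, 43.1, 50.7, 41.5, 42.7 and 67.3 CPM in WT libraries 1 to 6. The groups overlapped, KO libraries 1, 3 and 4 lying within the WT range, and the log2 fold change came to 0.38 ± 0.14 (SE). Tubb6, a divergent beta-tubulin, had 11.6, 15.9, 8.58, 11.8, 11.6 and 14.2 CPM in KO libraries 1 to 6, and 8.27, 8.31, 9.68, 8.19, 11.7 and 8.82 CPM in WT libraries 1 to 6. WT library 5 was as high as the middle KO libraries, and the log2 fold change was 0.42 ± 0.14. These 2 genes share almost no 50-base windows with other genes.

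**Figure D2:**
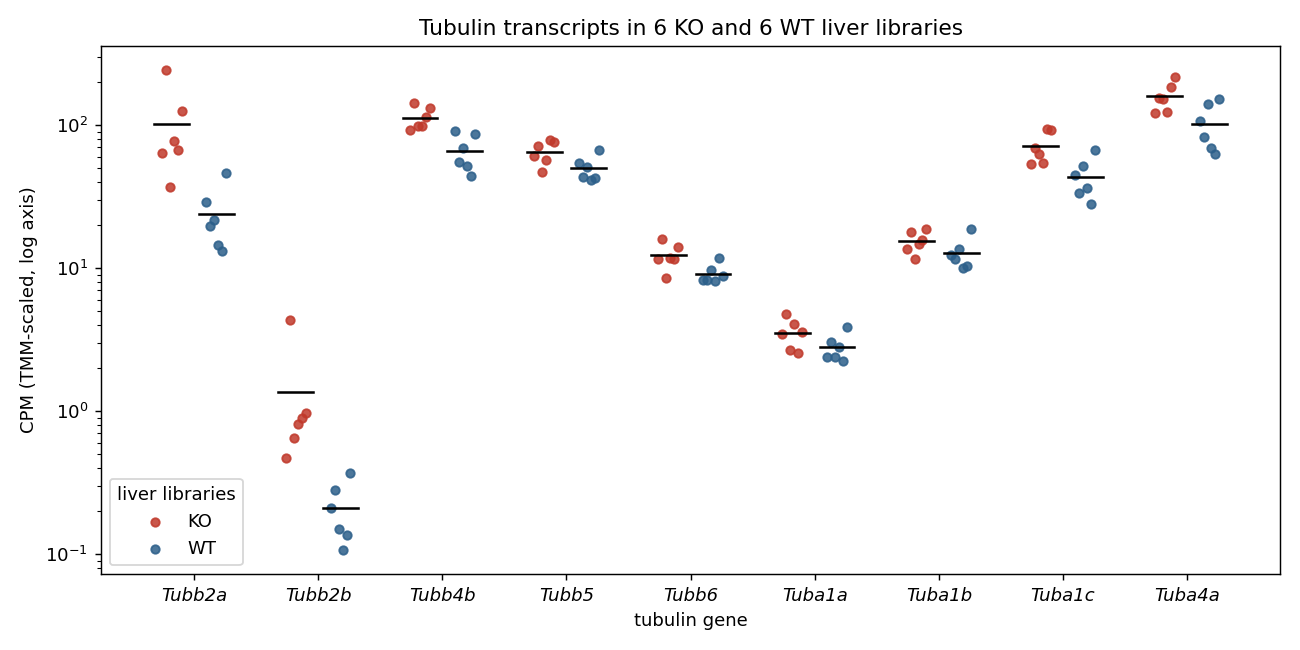
CPM on a log axis for the 9 tubulin genes tested, with 1 point per library, KO left of WT, and a line at each group mean. Tubb2b and Tubb4b show no overlap between groups, while Tubb2a in KO spreads from 37.1 to 243 CPM and overlaps WT through 1 library.

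Among the alpha genes, Tuba4a and Tuba1c were the most abundant. Tuba4a, the alpha gene whose message does not encode the terminal tyrosine, had 122, 154, 153, 125, 185 and 216 CPM in KO libraries 1 to 6. It had 107, 82.1, 141, 69.8, 63.1 and 152 CPM in WT libraries 1 to 6. WT libraries 3 and 6 lay inside the KO range and the other WT libraries below it, and the log2 fold change came to 0.64 ± 0.23 (SE). Tuba1c had 53.6, 69.4, 62.9, 54.5, 94.4 and 92.9 CPM in KO libraries 1 to 6. It had 44.6, 33.8, 51.9, 36.3, 27.95 and 67.5 CPM in WT libraries 1 to 6. WT library 6 alone reached into the KO range, and the log2 fold change was 0.71 ± 0.22.

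Tuba1b, the alpha gene of most cell types, averaged 15.4 ± 2.63 CPM in KO and 12.8 ± 3.25 CPM in WT (SD, n = 6 each). No KO library stood above every WT library, since WT library 6 had 18.9 CPM and the highest KO library 18.8 CPM. Tuba1a, the alpha gene of developing neurons, averaged 3.52 ± 0.853 CPM in KO and 2.79 ± 0.598 CPM in WT, and 2 KO libraries exceeded the highest WT library. Their log2 fold changes were 0.27 ± 0.16 and 0.34 ± 0.19 (SE). Tuba8 (chromosome 6, 121210696 to 121226854) had 23, 61, 6, 19, 8 and 0 reads in KO libraries 1 to 6, and 34, 4, 10, 10, 10 and 7 reads in WT libraries 1 to 6. At these counts the groups overlapped throughout.

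In the fit over all genes (edgeR quasi-likelihood F test with p-values adjusted by Benjamini and Hochberg, threshold 0.05), 3 of the 9 tubulin genes tested were called higher in KO, Tubb2a, Tubb2b and Tubb4b. The background was 2.64% of all genes called in either direction and 1.15% called higher in KO (1.49% lower). DESeq2 called 4 of the 9 (3.91% of all genes higher in KO), and limma-voom called 2, without Tubb2b (394 of 15000 genes in either direction). Groups that did not overlap, with KO above, were found for Tubb2b and Tubb4b, and for 1.29% of all genes. All 9 log2 fold changes were positive, also under the other scalings tried, against 50.6% of all genes, with a median of 0.64 beside 0.0031 over all genes. Since the genes were chosen with this comparison known, nothing is read from these counts. The calls depend on single libraries. The Tubb2a call was kept without KO library 1, KO library 3 or WT library 6 and lost without any 1 of the other 9, and its log2 fold change ran from 1.63 without KO library 2 to 2.39 without WT library 6. The Tubb2b call ended without KO library 6 and without any 1 of WT libraries 1 to 5, and the Tubb4b call without any 1 of KO libraries 2, 3, 5 and 6 and WT libraries 2 to 5. No tubulin gene was called without KO library 6 or without WT library 2, 3, 4 or 5, 1 was called without KO library 2, KO library 5 or WT library 1, and 4 without WT library 6. In the authors' deposited table the log2 fold change was 2.09 for Tubb2a, 2.72 for Tubb2b and 0.78 for Tubb4b. The authors' adjusted p-values were under 0.05 for these 3 genes and for Tuba1c (0.0269) and Tuba4a (0.0216). They were under 0.05 for 834 of all 15140 genes, 388 of them higher in KO.

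Levels of different genes were compared per length of merged exons (RPKM, CPM per kilobase). In KO the order by mean RPKM was Tubb2a at 63.6, Tubb4b at 54.1, Tuba4a at 43.0, Tuba1c at 31.2, Tubb5 at 19.6, Tuba1b at 8.20, Tubb6 at 5.04, Tuba1a at 1.95, Tubb2b at 0.591 and Tuba8 at 0.223. In WT it was Tubb4b at 31.7, Tuba4a at 27.7, Tuba1c at 19.1, Tubb5 at 15.0, Tubb2a at 14.9, Tuba1b at 6.83, Tubb6 at 3.76, Tuba1a at 1.55, Tuba8 at 0.159 and Tubb2b at 0.0914. The ranges over libraries overlapped between neighbours in these orders, except between Tubb5 and Tuba1b and between Tubb6 and Tuba1a in KO, and from Tuba1b to Tubb6, Tuba1a and Tuba8 in WT. Tubb2a was thus 1st in KO and 5th in WT on this scale. The first place in KO depends on the length used, since Tubb2a came 3rd with coding length, behind Tuba4a and Tubb4b, and 2nd with the longest transcript.

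In KO the 5 beta genes summed to 143 ± 58.6 RPKM, against 65.5 ± 18.8 RPKM in WT (SD, n = 6 each), a ratio of 2.18. The summed RPKM of the 5 alpha genes was 84.6 ± 18.3 in KO and 55.3 ± 18.02 in WT, a ratio of 1.53. Tubb2a made up 37.1, 60.7, 26.1, 41.0, 33.2 and 45.8% of the beta sum in KO libraries 1 to 6, and 22.2, 22.2, 20.4, 18.2, 17.4 and 30.5% in WT libraries 1 to 6. KO library 3 was below WT library 6 and the other KO libraries were above all WT libraries, with means of 40.6 ± 11.9% in KO and 21.8 ± 4.72% in WT. Tubb2a accounted for 62.8% of the difference between the mean beta sums. Without it, the beta genes still summed to 79.3 ± 13.8 RPKM in KO and 50.5 ± 11.7 RPKM in WT.

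The leading alpha genes held similar shares of the alpha sum in both groups. Tuba4a held 50.8% of it in KO and 49.5% in WT, and Tuba1c 36.6% in KO and 34.6% in WT. In the beta sum the share of Tubb4b was 40.5% in KO and 48.4% in WT, and that of Tubb5 was 14.8% in KO and 23.5% in WT. The alpha sum divided by the beta sum was 0.643 ± 0.188 in KO and 0.844 ± 0.121 in WT. The sums, shares and this ratio use merged exon length, and their values depend on that choice. Tuba4a has 3701 merged exon bases and 1433 coding bases. Its WT mean was 27.7 RPKM by merged exon length and 71.5 by coding length, against 31.7 and 49.5 for Tubb4b. These sums inherit the comparison by which the genes were chosen and carry no test.

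**Figure D3:**
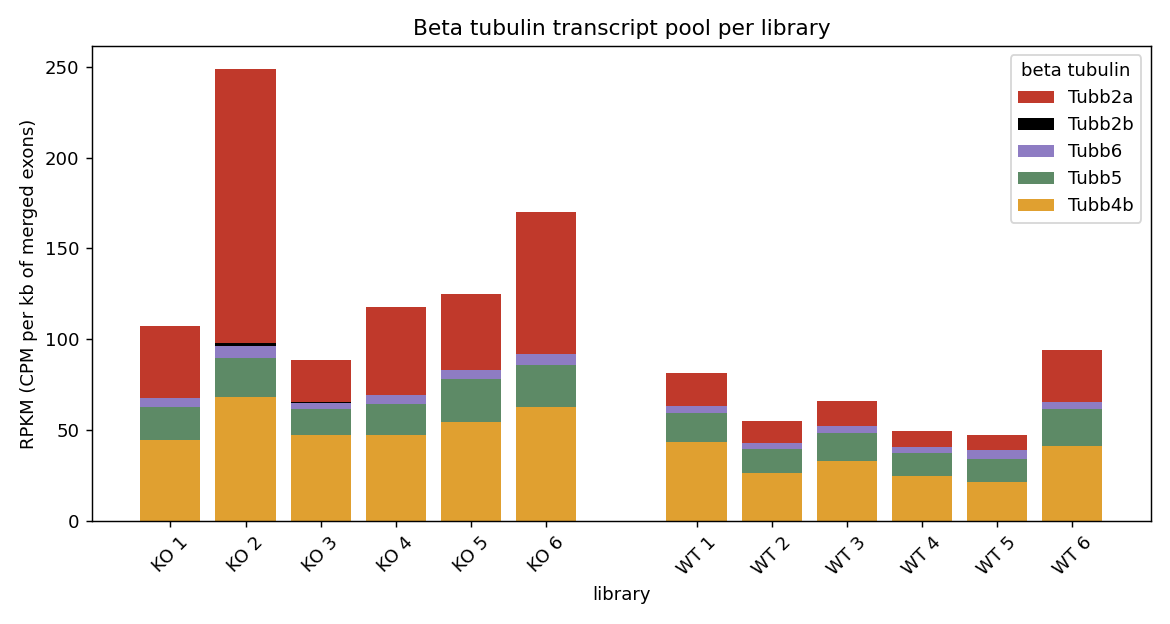
Stacked bars of RPKM of the 5 beta-tubulin genes in each library, the 6 KO libraries left of the 6 WT libraries. Tubb2a takes 26.1 to 60.7% of the bar in KO and 17.4 to 30.5% in WT, and KO library 2 has the tallest bar at 249 RPKM.

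Within each genotype, Tubb2a varied widely between libraries. Its highest library stood 6.55-fold above the lowest in KO and 3.52-fold in WT. The SD of log2 CPM within genotype was 0.81 for Tubb2a. This was the 96.9th percentile of all genes that averaged 1 CPM or more, whose median was 0.21. Tubb2b had 0.84, but it averaged under 1 CPM and is not among those genes. With 4 to 11 reads per WT library, counting error enters its SD. Tuba4a followed with 0.44, Tuba1c with 0.41 and Tubb4b with 0.34, and Tubb6 was the steadiest at 0.26. All 9 genes thus varied more than the median gene within genotype.

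Whether the tubulin genes moved together was examined after each genotype's mean had been subtracted, so that the difference between KO and WT could not enter. Over 12 libraries, Tubb2a was related to Tuba1b with Pearson's r = 0.86 (Spearman's rho = 0.92, permutation p = 0.00024, adjusted over 8 relations 0.00144). With Tubb4b, r was 0.81 (rho = 0.81, permutation p = 0.00036, adjusted 0.00144). With Tubb2b, r was 0.84 (rho = 0.82, permutation p = 0.00217, adjusted 0.00579), with Tubb5 0.77 (rho = 0.78, permutation p = 0.00536, adjusted 0.0107), and with Tuba1a 0.75 (rho = 0.66, permutation p = 0.0107, adjusted 0.0172). The other relations were positive and did not pass by r at an adjusted p of 0.05, with r between 0.53 and 0.54 for Tubb6, Tuba4a and Tuba1c and adjusted permutation p of 0.0832 to 0.113. By rank, Tuba4a did pass (rho = 0.69, adjusted permutation p = 0.0300), while Tuba1c (rho = 0.59) and Tubb6 (rho = 0.50) did not, so 6 of 8 relations passed by rho and 5 by r.

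Leaving out KO library 2 and WT library 6, the libraries farthest from the median of Tubb2a, kept r at 0.91 for Tuba1b, 0.79 for Tubb5 and 0.76 for Tubb4b, with adjusted permutation p of 0.0234, 0.0461 and 0.0234. The relation to Tubb2b then had r = 0.58 (adjusted permutation p = 0.161) and that to Tuba1a r = 0.40 (adjusted permutation p = 0.334), so these 2 rest on those libraries. The number of relations that passed was 5, and 3 when KO library 3 or WT library 6 alone was left out. Tubb6 followed Tubb2a within KO (r = 0.97, exact permutation p = 0.00278), while within WT r was -0.39 (exact permutation p = 0.453). Tuba1c and Tuba4a had r of 0.26 and 0.24 with Tubb2a within KO, and 0.89 and 0.86 within WT. The differences in r between genotypes were not tested.

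Among the 28 relations that do not involve Tubb2a, all r were positive, with a median of 0.55, and 12 passed adjustment over the 28. The highest, r = 0.95, joined Tuba1c and Tuba4a. Of the 50-base windows of Tubb2a, 712 occurred in Tubb2b, 1 in Tubb5 and none in Tubb4b, Tubb6 or the alpha genes. The part of shared reads in the relation to Tubb2b was not tested.

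The genes whose variation within genotype was most like that of Tubb2a among 12880 genes averaging 1 CPM or more were Rps6-ps4 (r = 0.91), Jpt2 (r = 0.91), Gars (r = 0.90), Chka (r = 0.89), Cct3 (r = 0.88) and Smyd5 (r = 0.88). By rank (rho), Gars, Rps6-ps4 and Cct3 remained among the first 6, beside Tuba1b, Hars and Gsdme. Rps6-ps4 is a ribosomal protein pseudogene, Gars encodes the glycyl-tRNA synthetase, Chka the choline kinase alpha, Cct3 a subunit of the tubulin-folding chaperonin and Smyd5 a methyltransferase. The values rest on 12 libraries and were picked as the highest of many, 95% of all genes lying between -0.61 and 0.64. Of the tubulin genes, Tuba1b ranked 10th, Tubb4b 33rd, Tubb5 65th, Tuba1a 107th, Tuba1c 676th, Tuba4a 717th and Tubb6 727th. Without subtracting genotype means, the 6 most alike were Cct3 (r = 0.96), Tmem167 (r = 0.95), and Rab1a, Arf4, Ltv1 and Gars (r = 0.94 each). Rab1a and Arf4 are small GTPases of the early secretory pathway, and that ranking includes the difference between genotypes.

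**Figure D4:**
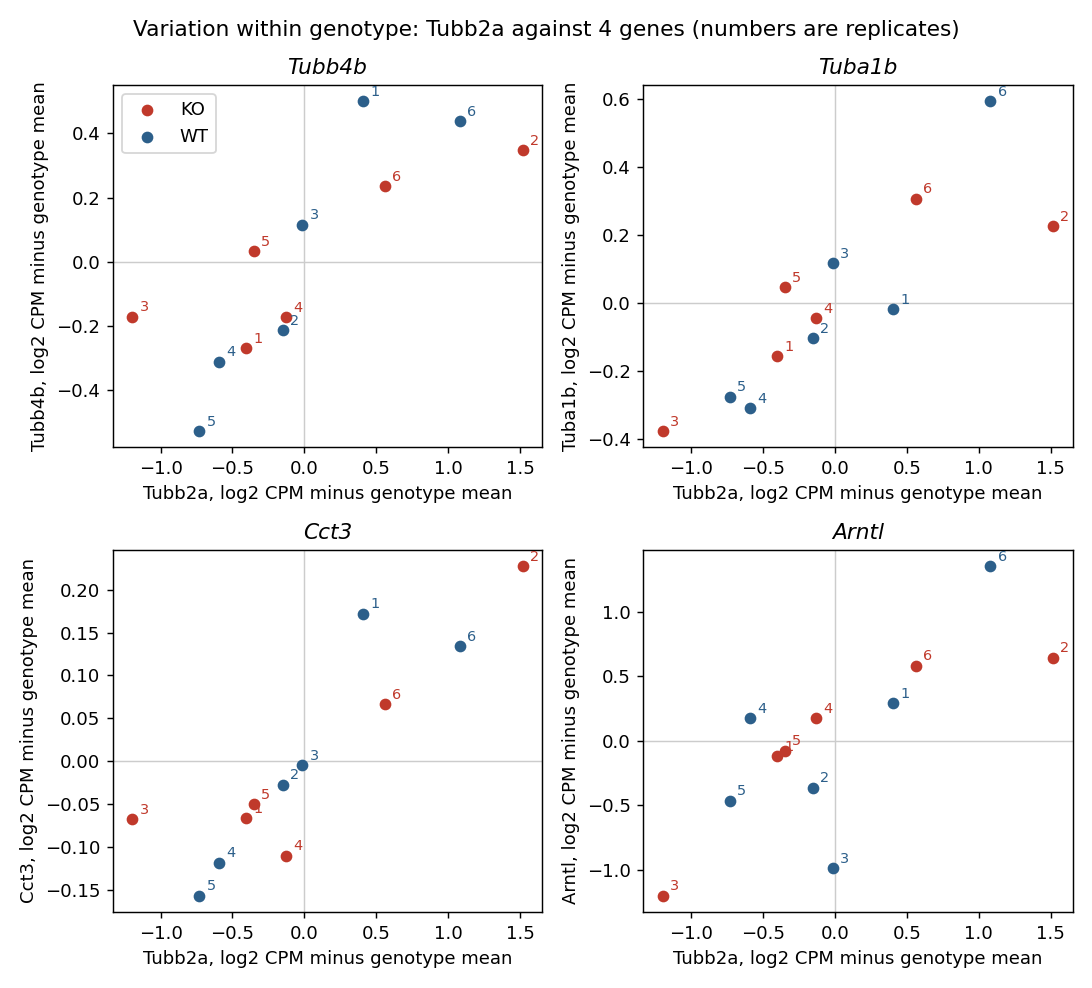
Log2 CPM minus the genotype mean for Tubb4b, Tuba1b, Cct3 and Arntl (y axes) against Tubb2a (x axes), with 1 numbered point per library in KO and WT. Points rise from lower left to upper right in each panel, with r between 0.78 and 0.88, and KO library 2 and WT library 6 lie at the far right.

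The folding machinery was followed through 2 lists. Of the 8 CCT subunits, Cct3 was called, with 93.1, 114, 93.1, 90.4, 94.2 and 102 CPM in KO libraries 1 to 6 and 87.6, 76.3, 77.5, 71.6, 69.8 and 85.4 CPM in WT libraries 1 to 6. All KO libraries stood above all WT libraries, giving a log2 fold change of 0.33 ± 0.08 (SE; edgeR adjusted p = 0.0410). The call was lost without any 1 of KO libraries 1, 2, 3, 5 and 6 and WT libraries 2, 3, 4 and 5. Cct8 had 0.22 ± 0.06 (edgeR adjusted p = 0.0568), and 7 of 8 subunits had positive log2 fold changes with a median of 0.13. Within genotype the subunits differed in likeness to Tubb2a, from r = 0.88 for Cct3 and 0.76 for Cct6a to 0.09 for Cct4. Of 14 folding cofactors and prefoldin subunits, none passed by edgeR (5 had unadjusted p under 0.05, as did 4 of the 8 CCT subunits and 21.2% of all genes), the smallest p belonging to Tbce, tubulin cofactor E, with 0.17 ± 0.06.

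In the remaining lists few genes passed. Among 17 tubulin-modifying enzymes tested, Agbl5, which removes glutamate from tubulin tails, fell to 5.49 ± 0.589 CPM in KO, against 7.94 ± 0.935 CPM in WT (SD, n = 6 each; log2 fold change -0.53 ± 0.11, edgeR adjusted p = 0.0262). All 6 KO libraries were below all WT libraries. The share of all genes separated in this direction is not given here, while 1.29% were separated with KO above. The Agbl5 call was lost when KO library 6, WT library 2 or WT library 4 was left out. Among 21 dynein and dynactin genes tested, Dynlrb1, a light chain of the motor that runs towards microtubule minus ends, was 76.8 ± 4.67 CPM in KO and 64.1 ± 2.24 CPM in WT (log2 fold change 0.26 ± 0.05, edgeR adjusted p = 0.0288). All 6 KO libraries were above all WT libraries, and the call was lost without any 1 of KO libraries 3, 5 and 6 and WT libraries 2, 4 and 5. None passed by edgeR among 12 genes of tubulin autoregulation, 17 of the gamma-tubulin ring complex and its partners, 27 microtubule-binding and plus-end proteins, 10 destabilising and severing proteins and 20 kinesins (3, 3, 4, 1 and 8 with unadjusted p under 0.05, beside the 21.2% of all genes). The smallest p in these lists belonged to Cnot11 (log2 fold change 0.16 ± 0.06), Haus7 (0.36 ± 0.13), Clasp2 (-0.34 ± 0.10), Fign (-0.44 ± 0.18) and Kif21b (-0.69 ± 0.19).

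Other members of the superfamily were measured too. Of 10 further tubulins listed, 4 were tested and none passed (2 with unadjusted p under 0.05). Tubg1, gamma-tubulin, had a log2 fold change of 0.33 ± 0.11, and Tubb3, the neuronal beta-tubulin, averaged 0.604 CPM in KO and 1.56 CPM in WT. Over all lists of microtubule partners, 2 genes of 150 were called higher and 1 lower, or 2%, near the 2.64% of all genes, and the median log2 fold change was 0.04. For comparison outside microtubules, a list of actins and keratins with Vim, Des and Lmna was used. The 10 genes of it that were tested all had positive log2 fold changes, with a median of 0.19. None passed by edgeR (2 with unadjusted p under 0.05). The smallest p was that of Acta2, smooth muscle actin, at 1.62 ± 0.57, which was 0.65 without KO library 6. None of 16 heat shock genes passed by edgeR (1 with unadjusted p under 0.05), and of 27 cell cycle genes Tk1, thymidine kinase, was called, with 13.3 ± 2.10 CPM in KO and 29.5 ± 10.4 CPM in WT (log2 fold change -1.16 ± 0.22, edgeR adjusted p = 0.0253). Leaving out KO library 6 or any of WT libraries 2, 4 and 5 ended the Tk1 call.

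**Figure D5:**
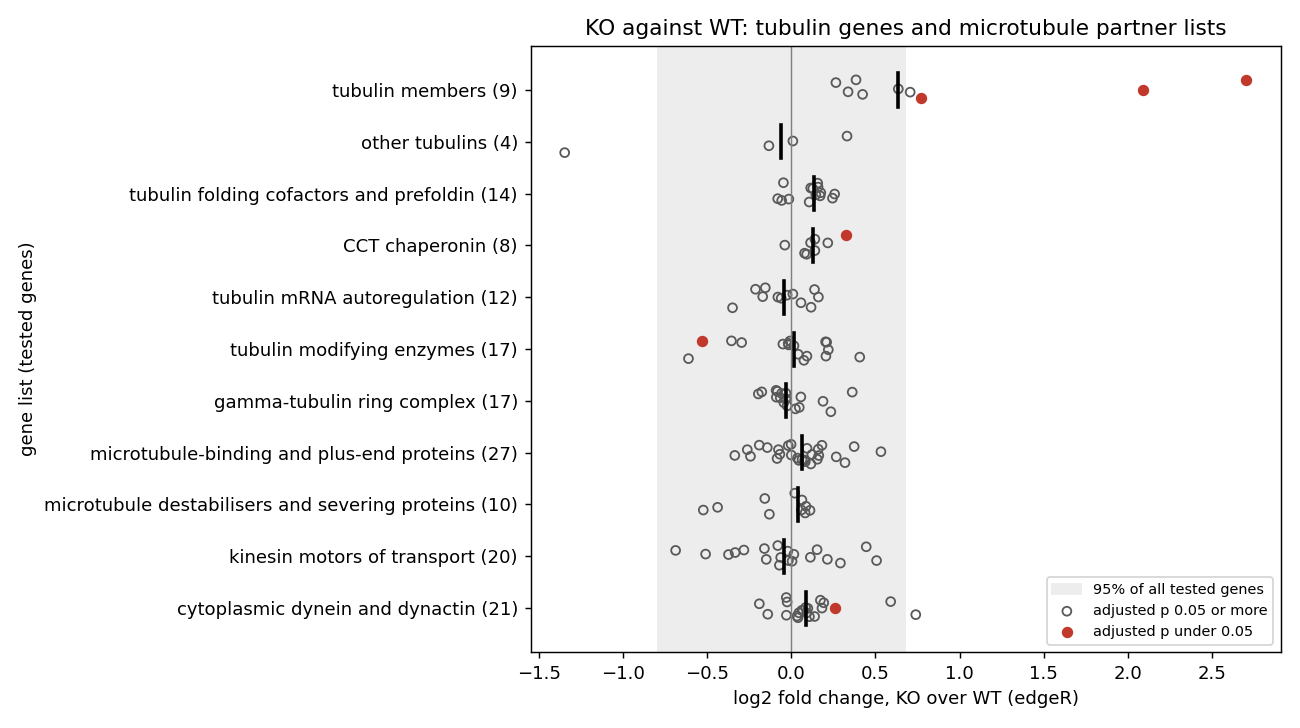
Log2 fold change of KO over WT for each tested gene of the tubulin members and of the partner lists, with the median as a bar and filled points where the edgeR adjusted p was under 0.05. The tubulin genes lie between 0.27 and 2.70 with a median of 0.64, and the partner lists have medians between -0.06 and 0.14.

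Some clock genes differed between the same groups. The 19 tested had a median log2 fold change of -0.60. Of these, Cry1 rose (log2 fold change 0.96 ± 0.21) and Hlf and Tef fell (-0.80 ± 0.16 and -0.93 ± 0.20; edgeR adjusted p of 0.0360, 0.0266 and 0.0326, each lost without at least 4 single libraries, KO library 6 and WT libraries 2, 4 and 5 among them for all 3). These 3 calls are 15.8% of the list, against 2.64% of all genes, and 13 of the 19 had unadjusted p under 0.05. Arntl, which encodes the clock activator BMAL1 and was chosen after its values were seen, had 11.1, 18.8, 5.19, 13.6, 11.4 and 17.97 CPM in KO libraries 1 to 6. It had 5.30, 3.35, 2.16, 4.88, 3.12 and 11.1 CPM in WT libraries 1 to 6. In Arntl, KO libraries 1 and 3 lay below WT library 6, and WT library 1 lay above KO library 3, so the groups overlapped, and the log2 fold change was 1.39 ± 0.40 (edgeR adjusted p = 0.0808). The labels used here give no hour of sampling.

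Within genotype, Arntl was related to Tubb2a with r = 0.78 (rho = 0.78, permutation p = 0.00387, adjusted over 9 relations 0.0348 for r and 0.0538 for rho). All 9 relations of Arntl to tubulin genes were positive, 4 passing by r and 0 by rho. Tuba1a (r = 0.73), Tuba1b (r = 0.72) and Tubb5 (r = 0.71) also passed by r, each with an adjusted permutation p of 0.0368. Without WT library 6 and KO library 3, the libraries farthest from the Arntl median, r with Tubb2a was 0.51 (permutation p = 0.112, adjusted 0.574). That relation thus rests on those 2 libraries, and 0 of the 9 passed without them. With Arntl as a covariate in the fit, the Tubb2a log2 fold change was 0.71 and that of Tubb4b 0.40. Tubb5, Tuba1a and Tuba1b turned slightly negative there, with log2 fold changes of -0.0036, -0.13 and -0.15. No tubulin gene and no other gene was then called by edgeR, 1267 genes having an unadjusted p under 0.05. The part of the clock or of sampling time in the tubulin differences was not tested. The fit with Arntl cannot decide it, since Arntl was itself mostly higher in KO libraries and was chosen after its values were seen. Genotype and Arntl level thus cannot be told apart in these libraries.

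Promoters are shown for the 2 abundant beta genes with the largest differences, from 250 bases before to 50 bases after the transcript start (RefSeq, GRCm38.p6). A promoter entry was matched for 8 of the 10 genes, all but Tubb2b and Tubb6. Capitals mark 5 motifs searched on both strands: CCAAT (the CCAAT box), GGGCGG (the GC box), CACGTG (the E-box of clock and other factors), TGACGTCA (the cAMP response element) and GAANNTTC (the core of the heat shock element).
Tubb2a, chr13:34077959-34078258, minus strand: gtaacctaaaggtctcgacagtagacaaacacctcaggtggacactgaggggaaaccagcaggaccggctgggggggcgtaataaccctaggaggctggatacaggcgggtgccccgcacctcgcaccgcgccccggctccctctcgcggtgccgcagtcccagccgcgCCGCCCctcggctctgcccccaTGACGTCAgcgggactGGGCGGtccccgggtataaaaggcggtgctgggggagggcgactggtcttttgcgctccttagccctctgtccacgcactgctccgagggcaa
Tubb4b, chr2:25224653-25224952, minus strand: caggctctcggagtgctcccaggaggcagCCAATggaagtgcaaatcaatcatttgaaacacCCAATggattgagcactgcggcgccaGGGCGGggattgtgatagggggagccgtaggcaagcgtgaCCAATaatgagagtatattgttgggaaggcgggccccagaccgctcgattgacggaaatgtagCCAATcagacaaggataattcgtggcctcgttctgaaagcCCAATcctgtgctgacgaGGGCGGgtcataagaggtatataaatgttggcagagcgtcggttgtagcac
The Tubb2a window held TGACGTCA at -59 and GGGCGG at -81 and -43, counted from the start to the first base of the match. The Tubb4b window held CCAAT at 5 positions between -221 and -19, and GGGCGG at -162 and -1.

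Tubb2a was the 1 tubulin gene of 8 with TGACGTCA, which 1.80% of 32544 promoters hold. CCAAT was found in 4 of 8 (37.4% of all promoters), GGGCGG in 6 of 8 (35.9%), CACGTG in 2 of 8, Tubb5 and Tuba8 (7.17%), and GAANNTTC in 0 of 8 (7.89%). No motif of the 5 was thus shared by all tubulin promoters. These matches describe letters in the windows and are not evidence of binding.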

How the data were processed

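PolyA-selected liver RNA was sequenced in 12 libraries, 6 KO and 6 WT, grouped by the sample titles. The deposited table holds whole-number counts per gene, not normalized by the authors, beside the authors' own log2 fold change, p-value and adjusted p-value, per the file headers. Per the submitters' processing notes, the tools used, of unstated version, were HISAT2, featureCounts, DESeq2, SAMtools, Trimmomatic and FastQC, on GRCm38. Repeated entries of a gene (204) were left out.

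Differences were computed with edgeR 4.0.16 (R 4.3.3): TMM scaling, filterByExpr (140 genes removed), the robust quasi-likelihood F test, two-sided, Benjamini-Hochberg adjustment over 15000 genes and a threshold of 0.05. The SE is the absolute unshrunken log2 fold change over the square root of F. Relations used log2 CPM (prior count 2) minus genotype means and 100000 permutations within genotype, two-sided; relations within 1 genotype used all orders. RPKM used merged exon lengths of GENCODE M21 (GRCm38). All 30 pairs of libraries of a group were further apart than counting noise allows (38.2 to 243 as chi-square over its degrees of freedom). Counting error is small beside the spread between libraries except for Tubb2b and Tuba8.

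The members and all gene lists were chosen with earlier results of these data known. Named were the members; the called genes of each list, or else the gene with the smallest p; and the 6 genes most like Tubb2a with and without centring. Arntl, Cct8, Cct6a, Cct4, Tubb3, Hars, Gsdme, Stk16, Gm49450 and Tubb4b-ps1 were named after their values were seen. Alternatives were DESeq2 1.42.0, limma-voom (limma 3.58.1), other scalings and filters, a fit without robust estimation, other lengths, Spearman correlation, a replicate block, each library left out and, added after seeing the data, Arntl as a covariate.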

Additional observations from a re-analysis of the deposited data

Results flagged for a closer look

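In 74 groups of 6 libraries of the genes named in the text, 3 held a library set apart from its group by Dixon's ratio of gap to range (95% critical value for 6), where chance gives about 1 in 20 groups, or 3.7. Tubb2b stood apart in KO library 2, at 4.33 CPM against 0.474 to 0.974 CPM in the other KO libraries (ratio 0.685). That library also had the highest Tubb2a level of all libraries. Haus7, a subunit of the augmin complex, stood apart in KO library 4, at 11.98 CPM against 9.44 to 10.3 CPM in the other KO libraries (ratio 0.633). Acta2, smooth muscle actin, stood apart in KO library 6, at 13.5 CPM against 1.32 to 3.17 CPM in the other KO libraries (ratio 0.628).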

How the results depend on the processing

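Of 263 values recomputed under alternatives other than leaving out a library, 226 kept their direction and their side of the threshold, 19 lost a call, 4 gained one, 11 counts or values moved and 3 turned negative, all 3 with Arntl as a covariate (Tubb5 -0.0036, Tuba1a -0.13 and Tuba1b -0.15). All genes called numbered 396, against 1236 with DESeq2, 257 with total counts alone and 0 with Arntl as a covariate, and 25 to 700 with a library left out. Tubulin genes called numbered 3, against 1 with a replicate block (Tubb2b) and 0 with Arntl, and 0 to 4 with a library left out. Partner genes called numbered 3, against 12 with DESeq2, 1 with total counts alone and 0 with the replicate block or Arntl, and 0 (without KO library 6) to 5 (without KO library 4) with a library left out. The Tubb2a log2 fold change was 1.94 with the replicate block and 0.71 with Arntl, both not called, and 1.63 to 2.39 with a library left out. Relations of Tubb2a that passed ran from 3 to 6 and its beta share differed by 14.8 to 21.7 percentage points with a library left out. Same-numbered libraries deviated together with r of -0.20 to 0.36, which cannot decide whether the numbers pair the libraries. The cause of these shifts was not tested. Low counts limit Tubb2b and Tuba8.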
